A study of Homo sapiens with 6 samples.

Results

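The transcript levels of 36 genes, nearly all of which act where secreted and membrane proteins enter the endoplasmic reticulum (ER), were followed in a prostate cancer cell line treated with pyrvinium pamoate (PP). The members were chosen by symbol, as subunits of the signal recognition particle (SRP) and its receptor, the SEC61 channel with SEC62 and SEC63, the translocon-associated protein (TRAP) complex with TRAM1 and TRAM2, signal peptidase, and oligosaccharyltransferase. All 36 were among the 17177 symbols of the deposited table, and all 36 were among the 11726 genes that passed the expression filter (a mean of at least 1 FPKM, fragments counted per kilobase of gene length and corrected for library depth). The list also holds HSPA14, a cytosolic chaperone of the Hsp70 family that works at the ribosome and belongs to none of these complexes.

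NCI-H660 is an established human cell line from neuroendocrine prostate cancer and was labelled wild-type. It was treated with PP, an anthelmintic drug, or with phosphate-buffered saline (PBS) as the control, and RNA was collected on day 3. Each treatment had 3 libraries of the same line in the labels and the table. The study's figure legends for this experiment likewise give 3 samples and call them independent, while its methods paragraph speaks of duplicates. Its reporting summary gives at least 3 biologically independent repeats for in vitro work, unless stated otherwise. The labels give neither the dose of PP nor whether the libraries came from separate cultures. The legends do not say in what sense the samples were independent. The p-values therefore measure the spread between these libraries, part of which may be technical. A fall in a transcript per cell cannot be told apart from fewer cells that express it.

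Neuroendocrine markers were present in every library, with CHGA, CHGB, SYP, NCAM1, ENO2, INSM1, SCG2 and SCG3 each at a mean above 1 FPKM and NEUROD1 at 0.0664 to 0.231. CHGA, a granule protein, read 44.1, 42.4 and 43.3 FPKM with PBS and 25.3, 25.5 and 23.5 with PP. CHGB, SYP and ENO2 also fell, by 0.32, 0.23 and 0.15 on the log2 scale, while SCG2 and INSM1 rose by 0.66 and 0.21 and NCAM1 and SCG3 did not pass the threshold. The fibroblast, immune and endothelial marker lists summed to between 0.872 and 4.91 FPKM in each library. The part of these marker shifts in the results below was not tested.

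As background, SRP binds the signal sequence of a nascent protein, slows its synthesis, and hands the ribosome to the SRP receptor on the ER membrane. The chain then passes through the SEC61 channel, aided by TRAP, TRAM1, SEC62 and SEC63. Signal peptidase cuts off the signal sequence, and oligosaccharyltransferase attaches N-glycans to asparagine residues as the chain enters the lumen. Secretory cells, neuroendocrine cells among them, depend on this route for hormones, granule proteins and surface receptors.

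Each change is the difference in mean log2(FPKM + 1) between PP and PBS libraries, fitted with limma to all 11726 genes, and "rose" and "fell" mean a Benjamini-Hochberg adjusted p under 0.05. The list was chosen with earlier results of these data known, so the shares below describe it and test nothing. With PP, 22 of the 36 genes rose, which is 61.1%, against 38.1% of all genes tested. Another 9 of the 36 fell, which is 25%, against 34.4% of all genes. The remaining 5 genes (TRAM2, SEC11A, DAD1, MAGT1 and HSPA14) did not pass the threshold. At a log2 fold change above 0.5, 8 of the 36 rose, or 22.2%, against 11.3% of all genes. Below -0.5, 1 of the 36 fell, or 2.78%, against 12.5% of all genes, and that gene was SRP14. In 21 genes all PP libraries lay above all PBS libraries (39.5% of all genes) and in 9 they lay below (35.5% of all genes).

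The median log2 fold change of the 36 genes was 0.13, beside 0.02 over all genes tested. It was 0.53 for SRP and its receptor, 0.38 for the SEC61 group, 0.14 for TRAP and TRAM, 0.13 for signal peptidase and -0.01 for oligosaccharyltransferase. Each of these 5 groups held both genes with log2 fold changes above 0 and genes with values below 0. Individual genes ran from -0.73 for SRP14 to 0.79 for SSR3. The summed FPKM of the SEC61 group went from 348 ± 2.47 in PBS to 495 ± 11.3 in PP libraries (SD, n = 3 each), or 42.4% more. For SRP and its receptor the sums were 488 ± 12.0 and 476.5 ± 7.51 (SD, n = 3 each), since the genes that fell there were also the most abundant.

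**Figure D1:**
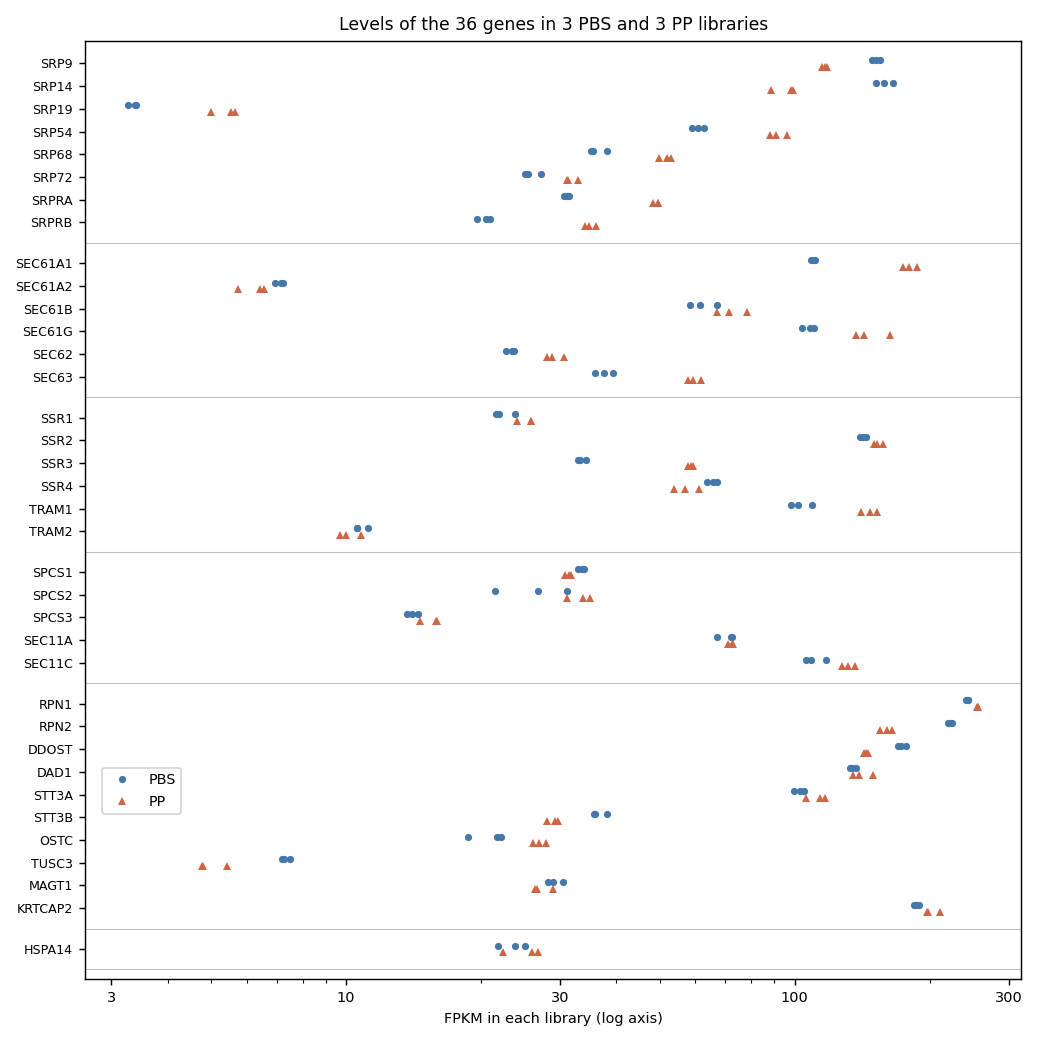
FPKM of each of the 36 genes in every library, on a log axis, with PBS as circles and PP as triangles and horizontal lines between the complexes. SRP9 and SRP14 lie to the left with PP while the other SRP and receptor genes lie to the right, and levels range from 3.26 FPKM for SRP19 to 256 for RPN1.

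**Figure D2:**
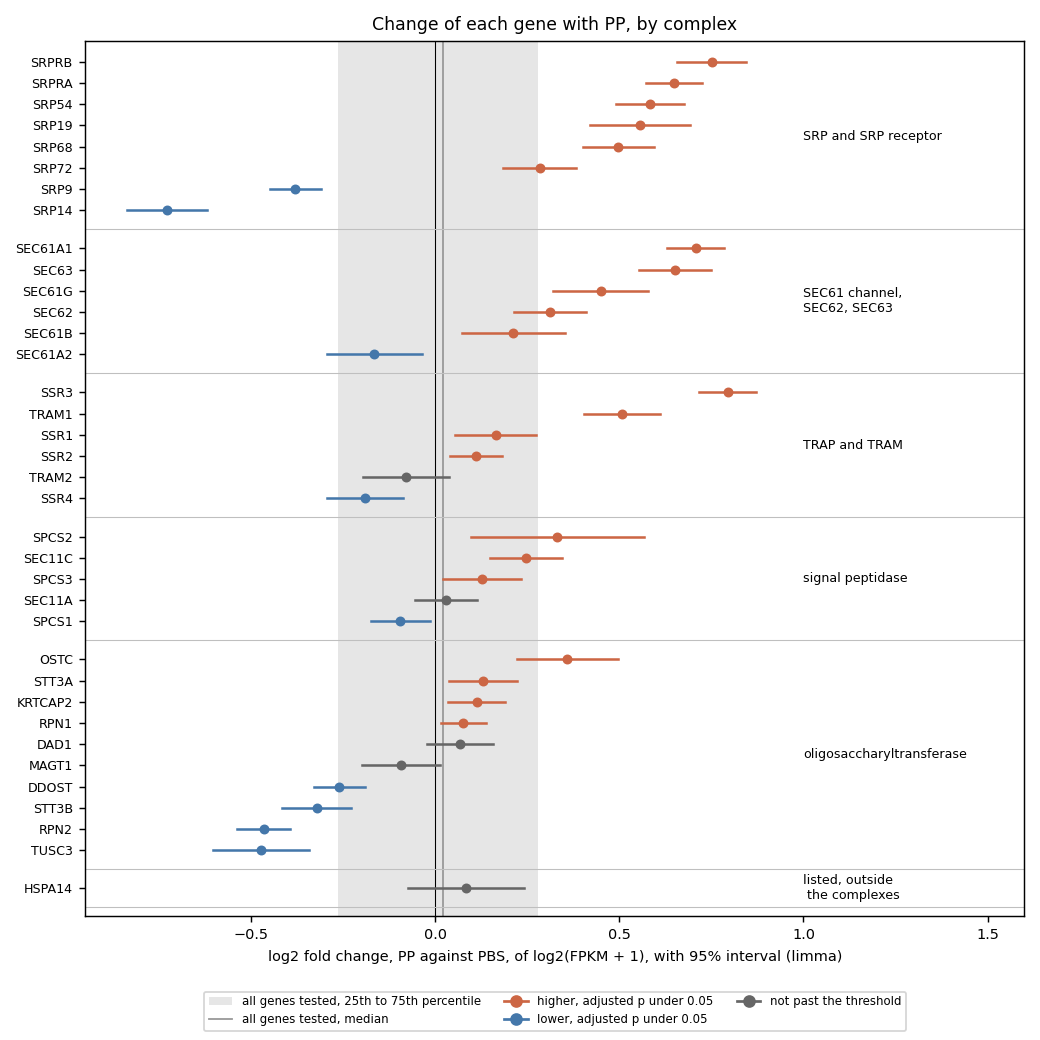
Log2 fold change of each gene (PP against PBS, on the log2(FPKM + 1) scale) with its 95% interval from limma, sorted within each complex, with colours for the call and grey shading for the middle range of all genes tested. SSR3, SRPRB and SEC61A1 stand highest at 0.79, 0.75 and 0.71, and SRP14 stands lowest at -0.73.

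SRP has an Alu domain, made of SRP9 and SRP14 on one end of its RNA, which slows the ribosome, and an S domain, made of SRP19, SRP54, SRP68 and SRP72, which reads the signal sequence. With PP, both Alu-domain genes fell and all 4 S-domain genes rose. SRP14 read 165, 158 and 152 FPKM with PBS and 88.6, 98.2 and 99.1 with PP. Every PP library was thus far below every PBS library, with a log2 fold change of -0.73 (standard error 0.05, limma adjusted p = 4.07e-07). Its partner SRP9 went from 152 ± 3.18 to 116.5 ± 1.62 FPKM (SD, n = 3), a log2 fold change of -0.38 (adjusted p = 1.94e-06 from limma).

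SRP54, the GTPase that holds the signal sequence, read 62.8, 59.1 and 60.8 FPKM with PBS and 91.0, 88.1 and 96.1 with PP. The groups were well apart, with a log2 fold change of 0.58 (standard error 0.04, adjusted p = 6.21e-07 from limma). SRP19, which helps assemble SRP54 onto the RNA, read 3.38, 3.40 and 3.26 FPKM with PBS and 4.99, 5.54 and 5.66 with PP, a log2 fold change of 0.56 (adjusted p = 1.52e-05 from limma). The pseudocount understates this low gene, and limma-voom on recovered counts gave 0.69. The heterodimer partners SRP68 and SRP72 rose by 0.50 and 0.28, from 36.3 ± 1.68 to 51.6 ± 1.59 FPKM and from 25.9 ± 1.16 to 31.7 ± 0.965 FPKM (SD, n = 3).

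Both receptor subunits rose. SRPRA, the GTPase that docks with SRP54, read 30.6, 31.3 and 31.1 FPKM with PBS and 49.6, 49.5 and 48.4 with PP. SRPRB, which anchors SRPRA in the membrane, read 19.6, 20.5 and 21.0 FPKM with PBS and 36.03, 34.1 and 34.7 with PP. These are changes of 0.65 and 0.75 on the log2 scale (standard errors 0.03 and 0.04, adjusted p = 7.89e-08 and 1.12e-07 from limma), and no library of one treatment reached the range of the other. Of all genes tested, 95.4% had a lower log2 fold change than SRPRB and 6.3% had a lower one than SRP14.

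The split between the SRP domains can also be written as ratios within single libraries, where the scaling between libraries cancels. The ratio of SRP54 to SRP14 FPKM was 0.38, 0.373 and 0.401 in the PBS libraries and 1.03, 0.898 and 0.97 in the PP libraries, which is a 2.51-fold rise. The ratio of SRP68 to SRP9 went from 0.247, 0.239 and 0.231 to 0.445, 0.462 and 0.423. These pairs were chosen after their values were seen and were not tested. Their ratios restate the changes above and are no further support for the split. Levels of different genes can be compared only as far as the gene lengths used by the authors hold. The lengths implied by the table were 9662 bases for SRP19 and 1169 bases for SRP14, and a long gene model lowers the FPKM of a gene whose transcripts are mostly shorter.

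The SEC61 channel consists of an alpha, a beta and a gamma subunit. SEC61A1, the main pore-forming alpha subunit, read 109, 111 and 111 FPKM with PBS and 188, 179 and 174 with PP. It rose by 0.71 on the log2 scale (standard error 0.03, adjusted p = 4.54e-08 from limma), and the groups were far apart. The gamma subunit SEC61G rose by 0.45, from 107.5 ± 3.36 to 147.5 ± 13.7 FPKM (SD, n = 3, adjusted p = 5.4e-05 from limma). The beta subunit SEC61B rose by 0.21 (adjusted p = 0.0114 from limma), from 62.3 ± 4.52 to 72.4 ± 5.63 FPKM (SD, n = 3), and its highest PBS library and lowest PP library nearly met.

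SEC61A2, the second alpha gene, was much lower and did not follow SEC61A1. It read 7.15, 7.23 and 6.94 FPKM with PBS and 6.42, 6.55 and 5.74 with PP, a log2 fold change of -0.17 (adjusted p = 0.0252 from limma). Without PP replicate 3 it was -0.12 with an adjusted p of 0.0863, without PBS replicate 1 or 2 the adjusted p was 0.0584 or 0.0724, and with equal FPKM totals it was 0.0777, so that call does not hold throughout. The ratio of SEC61A1 to SEC61A2 was 15.2, 15.4 and 15.9 in the PBS libraries and 29.2, 27.4 and 30.4 in the PP libraries. The genes are paralogues, and how reads common to both were counted is not stated.

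SEC62 and SEC63 form the arm of the translocon that helps chains with weak or short signal sequences, and SEC63 carries the J domain that recruits the lumenal chaperone HSPA5. SEC63 read 39.4, 37.5 and 35.9 FPKM with PBS and 57.7, 59.3 and 61.8 with PP. This was a rise of 0.65 (standard error 0.04, adjusted p = 4.34e-07 from limma) with the groups well apart. SEC62 rose by 0.31, from 23.3 ± 0.527 to 29.2 ± 1.34 FPKM (SD, n = 3, adjusted p = 9.92e-05 from limma).

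TRAP is a complex of SSR1 (alpha), SSR2 (beta), SSR3 (gamma) and SSR4 (delta) that sits beside the channel and helps some signal sequences to insert. Its genes did not move together. SSR3 read 33.1, 34.2 and 32.9 FPKM with PBS and 57.9, 58.7 and 59.4 with PP. Its rise of 0.79 (standard error 0.03, adjusted p = 1.96e-08 from limma) was the highest of the 36 genes, and 96.0% of all genes tested had a lower value.

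SSR1 and SSR2 rose by 0.16 and 0.11 (adjusted p = 0.0122 and 0.00976 from limma), from 22.4 ± 1.19 to 25.2 ± 1.04 FPKM and from 142 ± 2.07 to 153 ± 3.80 FPKM (SD, n = 3). Without PBS replicate 3 the adjusted p of SSR1 was 0.0517. SSR4 fell by 0.19 (adjusted p = 0.00402 from limma), from 65.5 ± 1.71 to 57.3 ± 3.56 FPKM (SD, n = 3). The ratio of SSR3 to SSR4, a pair chosen after its values were seen, was 0.521, 0.52 and 0.491 in the PBS libraries and 0.949, 1.03 and 1.1 in the PP libraries.

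TRAM1, a membrane protein that touches the signal sequence at the channel, read 109, 101 and 98.2 FPKM with PBS and 140.5, 147 and 153 with PP. It rose by 0.51 (standard error 0.05, adjusted p = 4.05e-06 from limma) with no overlap between the groups. Its paralogue TRAM2 read 10.6, 11.2 and 10.6 FPKM with PBS and 9.71, 10.8 and 9.99 with PP. These ranges overlapped, and its log2 fold change of -0.08 had an interval from -0.20 to 0.04 and did not pass the threshold.

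The start sites of the 36 genes were searched for short elements known from ER stress responses. The RefSeq promoter table (GRCh38.p14, 250 bases before to 50 after each start) held 29 of the 36 genes, with 37 start sites. The heptamer TGACGTG, the core recognised by factors such as XBP1 and ATF6, was found on either strand at 5 of the 29 genes, or 17.2%, and at 3.36% of the 9557 tested genes in that table. The full ER stress element (CCAAT, 9 bases, CCACG) was found at none of the 29 and at 0.146% of tested genes, and so was the shorter form (ATTGG, 1 base, CCACG), also at 0.146% of tested genes. CCACG alone, which lies inside both forms and can overlap the heptamer, was found at 65.5% of the 29 and 57.8% of tested genes. The amino acid response core TGATGNAAN was found at SRPRB only, against 2.53% of tested genes. Of the 5 genes with the heptamer, 4 rose and 1 fell, beside 61.1% and 25% of the 36 genes. Over all genes tested these shares were 38.1% and 34.4%. Whether the heptamer goes with the direction of change was not tested. The windows of all 5 genes are shown. Each is given on the strand of its gene, with the heptamer or its reverse complement in capitals and 10 bases on each side.
SEC61A1 (chr3:128052426-128052452, plus strand, heptamer from -1 to 6): gggctagcacTGACGTGtctctcggcg
SSR3 (chr3:156554149-156554175, minus strand, heptamer from -40 to -34): tgataacagcCACGTCAgcaaggaaac
SEC62 (chr3:169966781-169966807, plus strand, heptamer from -16 to -10): ctcctcgctcCACGTCAgagggaaccg
SRP19 (chr5:112861166-112861192, plus strand, heptamer from -111 to -105): gtcttcatgcCACGTCAgagactagag
SSR4 (chrX:153794530-153794556, plus strand, heptamer from -128 to -122): agggaggggcCACGTCAgtgctgccag
SEC61A1, SSR4 and SSR3 have more than 1 start site in the table, and each carried the heptamer at 1 of them. With PP, SSR3, SEC61A1, SRP19 and SEC62 had log2 fold changes of 0.79, 0.71, 0.56 and 0.31, and SSR4 had -0.19. SRPRB, SEC63 and SRP54, which rose by 0.75, 0.65 and 0.58, had no heptamer in this window. SRPRA and TRAM1, which rose by 0.65 and 0.51, were not among the 29 genes searched. A match is only a run of letters, and binding was not measured.

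No gene of signal peptidase passed a log2 fold change of 0.5 in either direction. The enzyme has 2 alternative catalytic subunits, SEC11A and SEC11C, which work with SPCS1, SPCS2 and SPCS3. SEC11A read 72.4, 67.2 and 72.0 FPKM with PBS and 72.7, 70.9 and 72.3 with PP, and its log2 fold change of 0.03 (interval -0.06 to 0.11) did not pass the threshold. SEC11C read 118, 106 and 109 FPKM with PBS and 127, 131 and 136 with PP, a rise of 0.25 (standard error 0.04, adjusted p = 5.36e-04 from limma) without overlap.

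SPCS3, which is needed for activity, rose by 0.13 (adjusted p = 0.0355 from limma) and SPCS1, an accessory subunit, fell by 0.09 (adjusted p = 0.0354 from limma). Both calls were lost in several fits. The adjusted p of SPCS1 was 0.0551 to 0.0973 with each library left out in turn, 0.0599 without the intensity trend, 0.282 with equal FPKM totals and 0.0862 when replicate numbers were fitted as blocks. That of SPCS3 was 0.0723 without PBS replicate 1, 0.115 without PBS replicate 2, 0.098 without PP replicate 1, 0.0996 without PP replicate 3, 0.0814 with median-ratio size factors and 0.051 with the block. SPCS2 read 31.1, 26.8 and 21.5 FPKM with PBS and 34.9, 31.1 and 33.7 with PP. The highest PBS library reached the PP range, and the rise of 0.33 (adjusted p = 0.0161 from limma) had a standard error of 0.11. Without PBS replicate 3, the lowest library, the rise was 0.19.

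Oligosaccharyltransferase comes in 2 forms built around different catalytic subunits. The form with STT3A is bound to the channel through OSTC and KRTCAP2 and glycosylates the chain as it enters. The form with STT3B uses the oxidoreductase subunits TUSC3 or MAGT1 and reaches sites that the first form missed. RPN1, RPN2, DDOST and DAD1 belong to both. Of the 10 genes, 4 rose and 4 fell with PP, shares near the 38.1% and 34.4% of all genes tested. None moved by more than 0.5 in either direction in the main fit. TUSC3 passed -0.5 in others, at -0.55 with limma-voom on recovered counts and -0.52 at its lowest with a library left out.

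STT3A read 103, 99.6 and 105 FPKM with PBS and 114, 116 and 106 with PP, a rise of 0.13 (standard error 0.04, adjusted p = 0.0163 from limma). STT3B read 35.9, 38.1 and 35.7 FPKM with PBS and 29.3, 28.1 and 29.7 with PP, a fall of 0.32 on the log2 scale (standard error 0.04, adjusted p = 5.62e-05 from limma). The catalytic subunits thus moved in opposite directions, with no overlap of the groups for either gene. The call for STT3A was lost without PBS replicate 2 (adjusted p = 0.0691), without PP replicate 2 (0.0706) and with median-ratio size factors (0.0503), and that for STT3B was not.

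The subunits found only in the STT3A form had values above 0. OSTC rose by 0.36, from 20.9 ± 1.92 to 27.0 ± 0.853 FPKM (SD, n = 3, adjusted p = 4.19e-04 from limma), and KRTCAP2 rose by 0.11, from 187 ± 2.63 to 202 ± 7.47 FPKM (SD, n = 3, adjusted p = 0.0133 from limma). For KRTCAP2 the adjusted p was 0.057 without PP replicate 2 and 0.0561 with median-ratio size factors. The subunits of the STT3B form had values below 0. TUSC3 read 7.28, 7.51 and 7.21 FPKM with PBS and 5.44, 4.80 and 4.78 with PP, a fall of 0.47 on the log2 scale (standard error 0.06, adjusted p = 3.98e-05 from limma). MAGT1 read 30.37, 28.95 and 28.2 FPKM with PBS and 26.4, 26.6 and 28.9 with PP, and its log2 fold change of -0.09 (adjusted p = 0.0993 from limma, interval -0.20 to 0.01) did not pass the threshold. Without PP replicate 3 it was -0.13 with an adjusted p of 0.0247, and with median-ratio size factors -0.12 with 0.0412.

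The shared subunits were split as well. RPN1 read 243, 241 and 243 FPKM with PBS and 256, 255 and 256 with PP. RPN2 read 224, 220.2 and 219.9 FPKM with PBS and 161, 165 and 155 with PP. RPN2 fell by 0.47 on the log2 scale (standard error 0.03, adjusted p = 5.77e-07 from limma) while RPN1 rose by 0.08 (adjusted p = 0.0271 from limma), and the small rise of RPN1 was lost without any 1 of the PBS libraries or without PP replicate 2 (adjusted p from 0.0548 to 0.096), with median-ratio size factors (0.145), without the intensity trend (0.102) and in the blocked fit (0.0944). The ratio of RPN1 to RPN2, chosen after its values were seen, went from 1.09, 1.1 and 1.1 to 1.59, 1.55 and 1.66.

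DDOST fell by 0.26 (adjusted p = 2.88e-05 from limma), from 173 ± 3.84 to 144 ± 1.54 FPKM (SD, n = 3). DAD1 went from 134 ± 1.96 to 141 ± 7.46 FPKM (SD, n = 3) and did not pass the threshold (adjusted p = 0.158 from limma, 0.0494 without PP replicate 3 and 0.0173 with equal FPKM totals). The small subunits OST4 and TMEM258, which the member list leaves out, did not pass it either. With each library left out, the log2 fold change was -0.07 to -0.0063 for OST4 and -0.06 to 0.08 for TMEM258, so the direction of TMEM258 depended on which library was left out. HSPA14 stood at 23.6 ± 1.65 FPKM with PBS and 25.05 ± 2.40 with PP (SD, n = 3), with a log2 fold change of 0.08 (adjusted p = 0.315 from limma, 0.0335 without PP replicate 1).

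Ratios of paralogues or alternative subunits were compared in 5 pairs. In each pair the log2 ratios of the PP libraries lay entirely to one side of those of the PBS libraries, and the exact two-sided permutation test gave p = 0.1 for each, also after Benjamini-Hochberg adjustment over the 5 pairs. That is the smallest p that 3 libraries against 3 can give, so no pair could pass a threshold of 0.05. The mean log2 ratio rose by 0.90 for SEC61A1 over SEC61A2, by 0.60 for TRAM1 over TRAM2 and by 0.46 for STT3A over STT3B. It fell by 0.22 for SEC11A over SEC11C and by 0.46 for TUSC3 over MAGT1. The SD of the log2 ratio within a treatment was at most 0.16. Full separation was common among single genes, with 39.5% of all genes tested entirely higher with PP and 35.5% entirely lower. The share among ratios of other gene pairs was not computed.

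The other genes of the pathway were taken from 3 lists by function. Among 28 tested genes of other insertion and targeting routes, 11 rose and 7 fell, with a median of 0.06, where 38.1% of all genes tested rose and 34.4% fell. SGTA, which hands tail-anchored proteins to the GET route, rose by 0.75 (adjusted p = 9.78e-08 from limma), and CAMLG, a receptor subunit of that route, rose by 0.53. The route's targeting ATPase GET3 fell by 0.35, from 69.9, 67.5 and 69.8 FPKM to 53.9, 54.5 and 53.6. HM13, the signal peptide peptidase that clears cut signal sequences from the membrane, rose by 0.58, from 35.1, 35.3 and 34.7 FPKM to 50.5, 55.3 and 52.7. NCLN, of a translocon for multi-spanning proteins, fell by 0.48. TMEM208 fell by 0.37 (adjusted p = 0.0152 from limma), with overlapping groups, and its adjusted p was 0.0548 without PBS replicate 2, 0.0672 without PP replicate 2 and 0.0578 without PP replicate 3.

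The lipid-linked glycan that oligosaccharyltransferase transfers is built on dolichol by ALG enzymes from activated sugars. Of 31 tested genes of that supply, 15 rose and 10 fell, with a median of 0.15, beside the same 38.1% and 34.4% of all genes. By more than 0.5, 7 rose and 0 fell, beside 11.3% and 12.5% of all genes. GFPT1, the first enzyme of the hexosamine route to UDP-GlcNAc, rose by 1.62 (standard error 0.04, adjusted p = 2.98e-10 from limma), from 19.0, 18.3 and 19.3 FPKM to 59.6, 58.9 and 61.3. PGM3, a later enzyme of the same route, rose by 0.76 (adjusted p = 1.22e-07 from limma). The mannosyltransferase ALG2 rose by 1.05, from 12.6, 12.6 and 12.3 FPKM to 26.3, 27.2 and 27.5. The lowest log2 fold changes of the list were those of the glucosyltransferase ALG6 (-0.41), the mannosyltransferase ALG3 (-0.38) and the glucosyltransferase ALG8 (-0.36).

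After transfer the glycan is trimmed and read by lectin chaperones, and 7 of 16 such genes rose and 5 fell, with a median of 0.07, again near the shares of 38.1% and 34.4% over all genes. The membrane lectin chaperone CANX rose by 0.55, from 274, 268 and 265 FPKM to 390.3, 393 and 402. Its lumenal counterpart CALR fell by 0.37, from 434, 411 and 422 FPKM to 323, 337 and 319.5. MCFD2, a cargo receptor subunit with LMAN1, rose by 0.83 and EDEM1, which takes part in disposal of misfolded glycoproteins, rose by 0.67. PRKCSH, a subunit of glucosidase II, fell by 0.28 and the mannosidase MAN1B1 fell by 0.26 (adjusted p = 0.017 from limma, 0.055, 0.0658 and 0.0678 without PBS replicate 2, PBS replicate 3 and PP replicate 2).

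**Figure D3:**
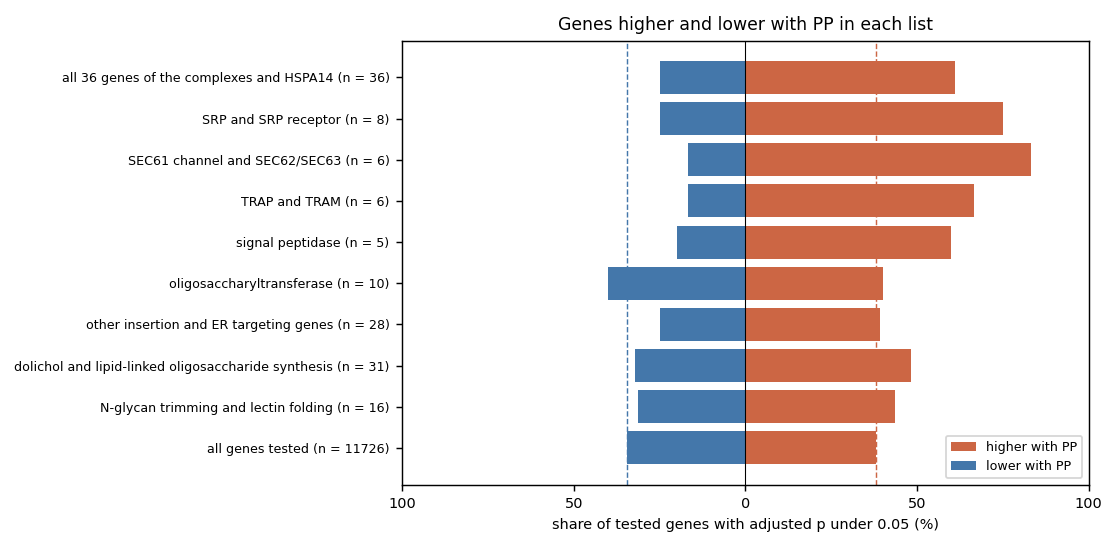
Share of the tested genes of each list that rose (right) or fell (left) with PP at an adjusted p under 0.05 from limma, with n in brackets and dashed lines at the shares over all genes tested, 38.1% and 34.4%. The SEC61 group has 5 of 6 genes higher, and oligosaccharyltransferase has 4 higher and 4 lower of 10.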

How the data were processed

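RNA-seq of 6 NCI-H660 libraries was used, 3 per treatment. The authors deposited FPKM values for 17177 gene symbols, none repeated. The methods give read filtering, Bowtie on hg19, RSEM, FPKM from Cufflinks and counts from HTSeq, while the submitters' processing notes name fastp, HISAT2, HTSeq and GRCh38. Whole counts were recovered from the steps of each gene's FPKM (tolerance 0.01 of a count) and summed to 29064253 to 32481171 per library. They were 608 to 20569 per library for the 36 genes, which all matched by symbol. Pairs of libraries differed in these counts by a chi-square over its degrees of freedom of 3.38 to 7.19 within a treatment and 155 to 177 across treatments (genes averaging 20 counts or more).

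Genes with a mean of at least 1 FPKM were fitted as log2(FPKM + 1) with limma 3.58.1 in R 4.3.3 (lmFit, eBayes with an intensity trend), with Benjamini-Hochberg adjustment over all 11726 genes. FPKM scaling was kept. Ratios were tested by exact permutation with scipy 1.17.1. The steps were tested on simulated data. The members and lists were chosen with earlier results of these data known. Members past a log2 fold change of 0.5 in size and those in the 5 pairs were given per library, with up to 3 genes at each end of the other lists. The alternatives changed the pseudocount (0.1, 0.5), the FPKM minimum (0.1, 5), the scaling, the trend, the block, the libraries and the unit (limma-voom on recovered counts). Some marker genes are not reported here.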

Additional observations from a re-analysis of the deposited data

How the results depend on the processing

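Across 15 alternatives, 25 of the 36 genes kept their direction and their side of adjusted p 0.05 in every fit that held them. Among them were the 9 with a log2 fold change past 0.5 in size in the main fit. The cut at 0.5 itself was less stable. The number of genes higher by more than 0.5 was 8 in the main fit and 7 with median-ratio size factors. It was 10 with equal FPKM totals and 7 to 9 with each library left out. TRAM1 went from 0.51 to 0.48 with median-ratio size factors. SEC11A, not past the threshold, was reversed at -0.0049 without PBS replicate 2 and ranged up to 0.0487 with other libraries left out. The number of genes lower by more than 0.5 was 2 in place of 1 with a pseudocount of 0.1, a pseudocount of 0.5 or limma-voom, and 1 to 2 with each library left out. The number lower in the SEC61 group was 0 in place of 1 with equal FPKM totals, and 0 to 1 with each library left out. In signal peptidase it was 0 in place of 1 with equal FPKM totals, without the intensity trend, with the replicate block and with any library left out. In oligosaccharyltransferase 1 gene in place of 4 was higher with median-ratio size factors, and 1 to 5 with each library left out (1 without PP replicate 2, 2 without PBS replicate 2).

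Median-ratio size factors moved the median of all genes by -0.03 and equal FPKM totals by 0.04. The median was then 0.10 and 0.18 for the 36 genes, 0.50 and 0.57 for SRP and its receptor, 0.35 and 0.43 for the SEC61 group, 0.11 and 0.19 for TRAP and TRAM, and -0.0416 and 0.0367 (reversed) for oligosaccharyltransferase, and with equal totals 0.17 for signal peptidase. With a minimum of 5 FPKM, which drops SRP19, the SRP median was 0.50. With each library left out it was 0.12 to 0.14 for the 36 genes, 0.33 to 0.41 for the SEC61 group, 0.11 to 0.16 for signal peptidase and -0.0297 to 0.0031 for oligosaccharyltransferase, which was reversed at 0.0031 without PP replicate 1. The cause was not tested.

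No sign of pairing by replicate number was seen. The deviations from the group means correlated at -0.211, -0.014 and -0.127 for numbers 1, 2 and 3. With 3 libraries per treatment, this cannot show that the libraries were unpaired. With the replicate block, 20 of the 36 genes rose and 8 fell. With median-ratio size factors 18 rose and 10 fell, and with equal FPKM totals 23 rose and 7 fell. With each library left out, 19 to 22 rose and 7 to 8 fell. The smallest count of any of the 36 genes in a library was 608, for SEC61A2. The part of counting error in the calls was not tested.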
